A study of Mus musculus with 12 samples.

Results

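The genes described here encode the cytoplasmic dynein motor (dynein-1), its cofactor dynactin, the LIS1 and NDE regulators and 5 activating adaptors. They were chosen by name, as 34 mouse symbols matched by Entrez ID to the 27179 genes of the deposited table, and all 34 were found. Of these, 32 had a normalised read count of at least 10 in at least 3 libraries and were tested with the other genes that passed this filter, 13939 in all. Dync1i1, an intermediate chain gene, had 1 read in 1 control library (a normalised count of 0.867) and none in the other libraries. Dynlrb2, a roadblock light chain gene, had 0 reads in all 12 libraries, which allows up to 3 reads in each.

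Cytoplasmic dynein is the main motor that moves cargo toward microtubule minus ends, and it positions the Golgi, endosomes, nuclei and spindle. The heavy chain carries the ATPase motor, the intermediate and light intermediate chains hold the tail together and contact partners, and the light chains dimerise the complex. Dynactin is built on a short filament of the actin-related protein ARP1 with capping protein at its barbed end, a pointed-end complex and a projecting shoulder arm. Adaptors of the BICD and Hook families join dynein to dynactin and to cargo, and LIS1 with NDE1 or NDEL1 helps the motor to assemble. In ciliated kidney cells this machinery delivers material toward the centrosome and the base of the cilium, while the related dynein-2 motor works inside the cilium.

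The data are polyA RNA-seq libraries of mIMCD3 cells, which come from collecting duct of the mouse inner medulla, in 4 groups of 3. All groups were kept at confluence for 48 h with 10% FCS, then without FCS for 24 h. The groups were wild-type control, Actr3 knockout (Actr3 KO), a double knockout of Actr3 with Ift88 (dKO), and Actr3 KO cells given the dynein inhibitor ciliobrevin D at 0.5 µM during starvation (the protocol names a solvent control). Actr3 encodes an Arp2/3 subunit needed for branched actin, and Ift88 a part of the transport trains that build cilia. The dKO and ciliobrevin D groups both lack Actr3 by label, so each was set against Actr3 KO and, side by side, against control. The labels give 1 line for each genotype, and the genotype and the clone cannot be told apart. However, 1 of the 3 control columns carries a line number that no title has, so the control group may mix 2 lines. Without that library 4 of the 32 tested genes rose and 18 fell in Actr3 KO. Of all tested genes 9094 were called in that fit, and 48.7% of those rose. No label names independent cultures within a group, and all p-values then describe only the spread between these libraries.

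Libraries held 28902562 to 38077987 reads recovered from the deposited values, and the 34 genes took 0.352% to 0.396% of them. Normalised counts of Actr3 were 8101 to 8664 in control libraries and 1145 to 1347 in Actr3 KO. They were 833 to 911 in dKO and 1400 to 1759 in treated cells. Ift88 had 441 to 471, 594 to 656, 573 to 633 and 434 to 443 in that order, and counts over a whole gene do not check an edit inside it. Of 14 markers of collecting duct and kidney epithelium, 12 or 13 had a mean of at least 10 in each group. Their summed counts were 102483 to 110577 in control libraries, 57592 to 62356 in Actr3 KO, 68953 to 74427 in the double knockout and 68012 to 71259 in treated cells. Most of the sum came from keratins, Epcam and Cdh1, and the markers did not move together. In Actr3 KO against control, mean Krt8 went from 25272 to 9727 and Epcam from 20587 to 11486. Cdh1 went from 14782 to 13980, and Tfcp2l1 rose from 2190 to 3248. Aqp2, the water channel that defines collecting duct principal cells, had group means of 0 to 0.62. Among 4 proximal tubule markers, Lrp2 carried the sum, which was 10253 to 12428, 14319 to 17068, 5276 to 6504 and 11801 to 12293 in the order control, Actr3 KO, dKO and treated, and Slc34a1 and Slc22a6 were at 0. The 5 leukocyte markers summed to 3112 to 3611, 4248 to 4607, 3251 to 3375 and 1186 to 1508, mostly Csf1r, with Adgre1 at 0 to 0.37. The 4 multiciliated cell markers summed to 2284 to 2606, 2126 to 2222, 2256 to 2395 and 576 to 878, mostly Foxj1, with Dnai1 at 0 to 0.586. Sums of the loop of Henle, fibroblast, neuron and endothelial markers were at most 513, 184, 25.8 and 25.9 in any library. The part of these markers in the results was not tested, and in bulk RNA fewer cells of a type and less RNA per cell cannot be told apart.

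Promoter windows are shown for 3 genes that carry the results below. Dynll1 and Capza2 were low in Actr3 KO and higher in both groups set against it, and Ndel1 had the largest difference of the 32 genes with ciliobrevin D. Each window is the 250 bases before the start that the RefSeq promoter table uses on GRCm38.p6, read 5′ to 3′ on the gene's strand: Ndel1 at chr11:68853136-68853385 (minus strand), Dynll1 at chr5:115300991-115301240 (minus strand) and Capza2 at chr6:17636760-17637009 (plus strand). Capitals mark matches, on either strand, to any of the motifs named after the sequences.
Ndel1: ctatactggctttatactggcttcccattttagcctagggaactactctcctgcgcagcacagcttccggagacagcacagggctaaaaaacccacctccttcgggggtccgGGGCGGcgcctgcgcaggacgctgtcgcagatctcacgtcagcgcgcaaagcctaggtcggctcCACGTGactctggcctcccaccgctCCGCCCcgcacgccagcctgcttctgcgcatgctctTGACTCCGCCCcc
Dynll1: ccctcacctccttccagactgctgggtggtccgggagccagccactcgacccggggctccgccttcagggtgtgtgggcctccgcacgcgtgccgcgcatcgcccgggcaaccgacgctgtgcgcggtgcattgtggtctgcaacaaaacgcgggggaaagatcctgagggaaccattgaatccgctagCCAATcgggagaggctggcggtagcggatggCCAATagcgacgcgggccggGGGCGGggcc
Capza2: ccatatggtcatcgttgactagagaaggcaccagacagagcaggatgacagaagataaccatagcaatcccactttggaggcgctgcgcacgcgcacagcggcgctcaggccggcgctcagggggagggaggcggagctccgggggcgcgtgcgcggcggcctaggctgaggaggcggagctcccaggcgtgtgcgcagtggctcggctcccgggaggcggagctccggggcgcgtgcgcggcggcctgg
The Ndel1 window held GC boxes (GGGCGG) starting 138, 49 and 8 bases before the start, an E-box (CACGTG) at 74 and an antioxidant response element (TGACNNNGC) at 13 that overlaps the last GC box. The RefSeq gene model of Ndel1 begins slightly upstream of that start, so the last bases of its window, with the last GC box, lie inside the gene. The Dynll1 window held CCAAT boxes (CCAAT) at 61 and 30 and a GC box at 10. The Capza2 window held none of the 7 motifs searched, which were these 4, the cAMP response element (TGACGTCA), the NRF1 site and the heat shock element. GC boxes are common, being in 32.7% of 32851 RefSeq windows. Of the 27 genes of the machinery with a window, 17 had a GC box in any of their windows. CCAAT boxes were in 33.8% of all windows and 10 of the 27 genes. E-boxes were in 6.02% of windows and 2 of the 27 genes, and antioxidant response elements in 10.2% and 4. Shares of windows and counts of genes are different units. A match describes letters in a window, not a bound site.

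The first 60 coding bases are shown for the Dynlt1 genes on chromosome 17, near-identical copies of the TCTEX1 light chain gene, because their reads are hard to assign. Capitals mark the position at which they differ (GRCm38, 5′ to 3′ on each gene's strand).
Dynlt1b: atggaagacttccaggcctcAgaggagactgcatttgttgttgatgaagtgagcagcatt
Dynlt1a: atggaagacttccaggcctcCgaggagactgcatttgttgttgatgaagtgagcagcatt
Dynlt1c: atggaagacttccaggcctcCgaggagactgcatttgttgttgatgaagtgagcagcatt
Dynlt1f: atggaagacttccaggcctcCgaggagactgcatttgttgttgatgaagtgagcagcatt
Dynlt1a, Dynlt1c and Dynlt1f were identical over all 339 coding bases, and Dynlt1b differed from them at 1 base (99.7% identity). The counting could have split or dropped reads among them, so each copy's value below is uncertain.

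In Actr3 KO against control, more genes of the machinery fell than rose. Of the 32 tested, 18 fell and 5 rose at a limma adjusted p under 0.05, where 35.4% of all tested genes fell and 34.4% rose. Their median log2 fold change was -0.19, against 0.00 over all tested genes. At 1.5-fold or more, 6 fell and 3 rose, with 15.3% and 15.1% of all tested genes as the background. The groups did not overlap for 26 of the 32, against 73.3% of all tested genes.

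In dKO against Actr3 KO, most of the 32 were higher. They numbered 20 higher and 4 lower, where 32.5% and 33.2% of all tested genes were called, and their median log2 fold change was 0.21 against -0.01. At 1.5-fold or more, 3 were higher and 1 lower, with 10.6% and 14.9% of all tested genes as the background. Against control, the same dKO libraries gave 10 higher and 13 lower, close to the 32.0% and 35.1% of all tested genes, with a median of -0.06. The groups did not overlap for 23 of the 32 against Actr3 KO and 25 against control, where the shares of all tested genes were 71.2% and 72.0%. These comparisons share libraries, so a gene low in Actr3 KO appears in both.

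With ciliobrevin D, genes of the machinery moved in both directions, also within several roles. Against Actr3 KO, 15 rose and 9 fell, with 32.7% and 32.9% of all tested genes as the background, and the median log2 fold change was -0.01 against -0.02. Under quantile normalization the split was 9 higher and 11 lower, and the share of higher genes among all called genes went from 49.9% to 45.6%. Against control, treated cells had 7 higher and 17 lower, where 33.0% and 32.0% of all tested genes were called, with a median of -0.16. The groups did not overlap for 22 of the 32 against Actr3 KO and 27 against control, where the shares of all tested genes were 68.1% and 67.8%.

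**Figure D1:**
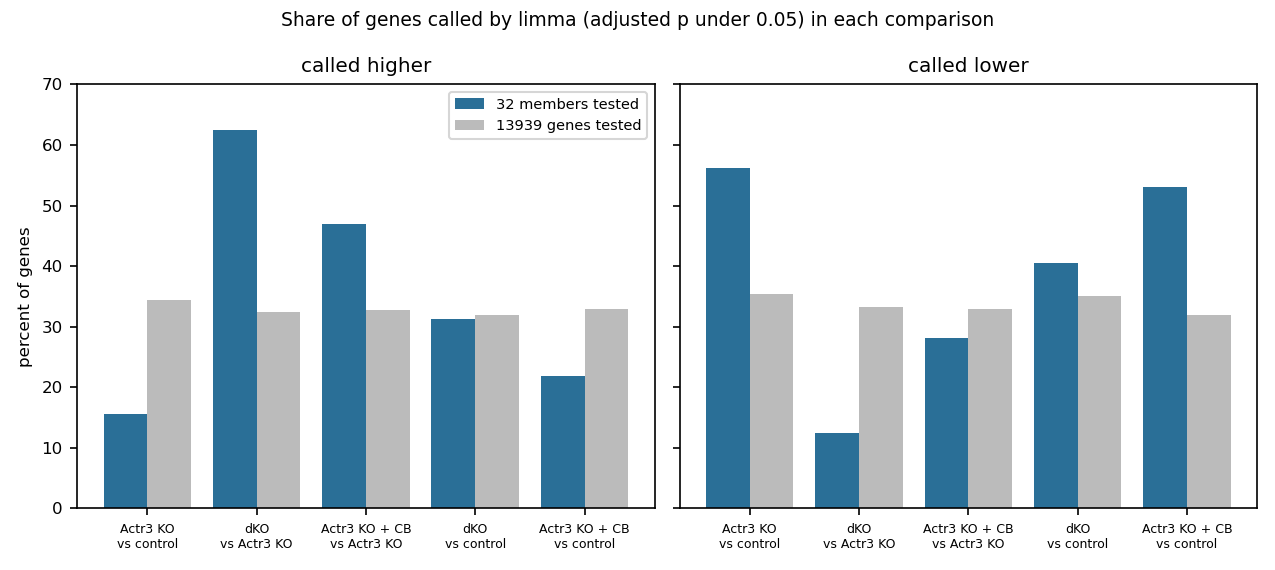
Percent of genes called higher (left) and lower (right) by limma in each comparison, for the 32 dynein, dynactin, regulator and adaptor genes and for all 13939 genes tested. The genes of the machinery stand above the background among lower calls in Actr3 KO against control (18 of 32, background 35.4%). They do so among higher calls in dKO against Actr3 KO (20 of 32, background 32.5%). Lower calls in ciliobrevin D-treated cells against control are above it too (17 of 32, background 32.0%). The excess is smaller for higher calls with ciliobrevin D against Actr3 KO (15 of 32, background 32.7%). It is also smaller for lower calls in dKO against control (13 of 32, background 35.1%).

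Log2 fold changes followed transcript length in 4 of the 5 comparisons. In Actr3 KO against control the median log2 fold change of all tested genes ran from -0.30 in the decile with the shortest merged exon length to 0.14 in the decile with the longest. In dKO against Actr3 KO it ran from 0.32 to -0.32, and with ciliobrevin D against Actr3 KO it was 0.03 and 0.05. The heavy chain gene Dync1h1 and the adaptor genes Hook3 and Bicd1 lie in the longest decile, and Dynlrb1, Dynlt1b, Dynlt1f and Dctn3 in the shortest. With the median of each of 20 length bins removed, an alternative added after the data were seen, 19 of the 32 were lower and 7 higher in Actr3 KO against control, and 18 were higher and 3 lower in dKO against Actr3 KO. Among all genes called under this alternative (9173 and 8434), 49.2% and 49.7% were higher in these comparisons.

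**Figure D2:**
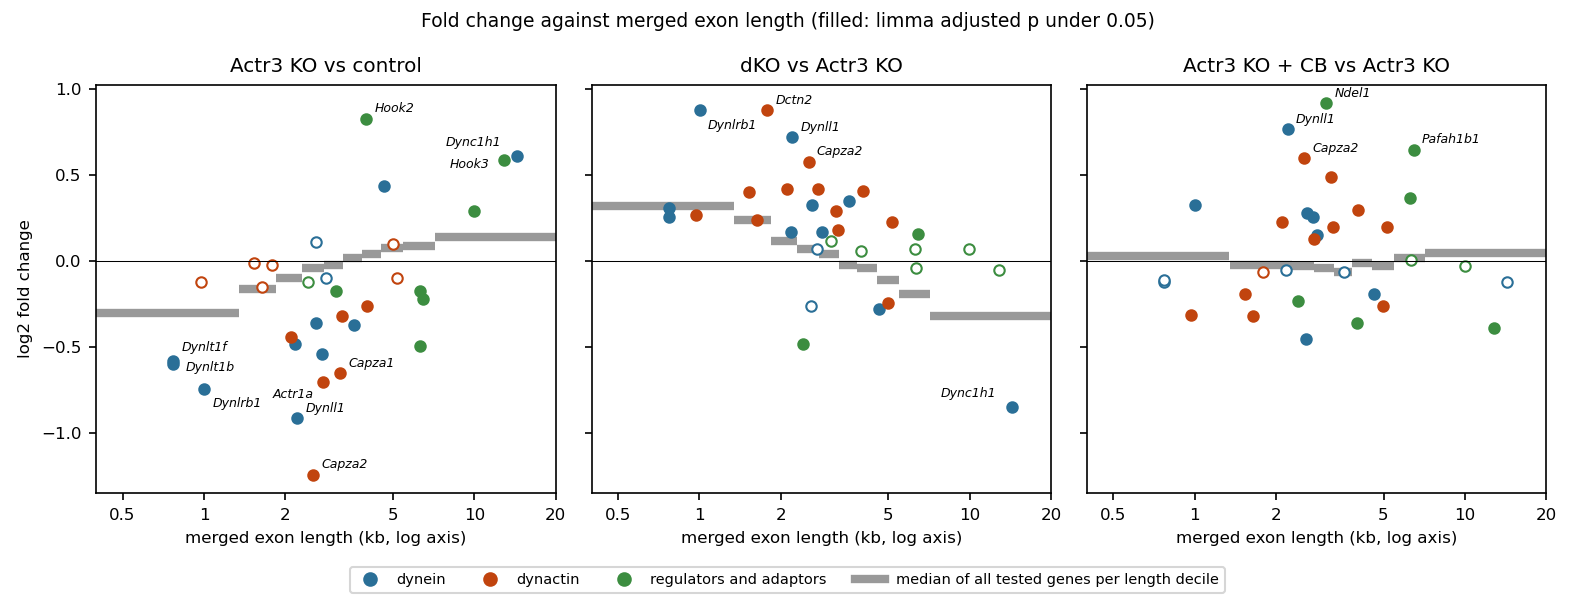
Log2 fold change of each tested gene of the machinery (points) against its merged exon length in kb on a log axis, for 3 comparisons. Filled points were called at an adjusted p under 0.05, and grey bars are the median of all tested genes in each length decile, with the outermost bars cut at the axis limits. Dync1h1 sits at the long end, at 0.61 in Actr3 KO and -0.85 in dKO, and Dynlrb1 at the short end, at -0.74 and 0.88.

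Among the dynein subunits, the heavy chain and most light chains moved in opposite directions in Actr3 KO. Of the 12 tested subunit genes, 8 fell and 2 rose against control, where 35.4% and 34.4% of all tested genes did. In the shortest length decile, which holds Dynlrb1, Dynlt1b and Dynlt1f, 54.1% of tested genes fell. In the longest, which holds Dync1h1, 47.8% rose. Dync1h1, the motor-bearing heavy chain on chromosome 12, rose, as did Dync1li2, a light intermediate chain, while 7 of 8 light chain genes fell. Per kilobase of merged exon, the control level was 1812 for Dync1h1, 1865 for the intermediate chain gene Dync1i2, 594 for Dync1li1, 946 for Dync1li2, 3368 for Dynll1, 2069 for Dynll2 and 2529 for Dynlrb1.

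Normalised counts of Dync1h1 (chromosome 12, 110601395 to 110666944) were 30217, 22992 and 24752 in control and 35391, 37973 and 45231 in Actr3 KO. In dKO they were 23520, 20571 and 21384, and with ciliobrevin D 36180, 37254 and 35082. The Actr3 KO libraries, treated or not, all lay above control, and those of dKO lay below Actr3 KO and overlapped control. Dync1h1 rose by 0.61 on the log2 scale in Actr3 KO against control (SE 0.09, adjusted p 6.05e-06) and fell by 0.85 in dKO against Actr3 KO (SE 0.09, adjusted p 5.99e-08). With ciliobrevin D, Dync1h1 differed from Actr3 KO by -0.12 (adjusted p 0.261; called at -0.21 under quantile normalization and -0.18 with length bins removed) and from control by 0.49 (adjusted p 0.000107). With length bins removed, the dKO value of Dync1h1 was -0.50 and the treated value against control was 0.26, both still called. The fall in dKO against control, -0.24 (adjusted p 0.0249), was -0.06 with length bins removed and -0.01 under quantile normalization. It was also not called without the control replicate 1 (-0.13), the dKO replicate 2 (-0.20) or the dKO replicate 3 (-0.23).

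The second subunit that rose in Actr3 KO was Dync1li2, which encodes 1 of 2 light intermediate chains that bind adaptors. It had 4376 ± 155 (SD, n = 3) in control and 5958 ± 242 in Actr3 KO (log2 0.44), then 4900 ± 238 in dKO (log2 -0.28 against Actr3 KO, or -0.16 with length bins removed) and 5238 ± 278 with ciliobrevin D (log2 -0.19, or -0.39 under quantile normalization). Its paralog Dync1li1, with 65.3% identity over the coding sequence, went the other way at each step, with -0.36, 0.33 and 0.28 in the same order, all 6 values called. Dync1i2, the intermediate chain gene with reads in these cells, had -0.10 in Actr3 KO (adjusted p 0.119, or -0.20 and called with chromosome medians removed) and rose by 0.17 in dKO and 0.15 with ciliobrevin D against Actr3 KO, the last being -0.05 under quantile normalization. The treated rise of Dync1i2 was not called without the Actr3 KO replicate 1 (0.13, adjusted p 0.0824) or the treated replicate 2 (0.10, adjusted p 0.138). Here and below, removal of chromosome medians subtracts in each library the median log2 level of a chromosome's genes. Its shift can therefore differ from the median fold change of that chromosome.

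Dynll1 encodes the LC8 light chain, a small dimer that also binds many proteins outside dynein. Normalised counts of Dynll1 (chromosome 5, 115297110 to 115300990) were 7139, 7873 and 7329 in control and 3874, 4164 and 3826 in Actr3 KO. They were 6470, 6531 and 6565 in dKO and 6243, 7122 and 6889 with ciliobrevin D. Actr3 KO was the lowest group, with no overlap, and both other knockout groups lay between it and control. Dynll1 fell by 0.91 on the log2 scale in Actr3 KO (SE 0.06, adjusted p 8.81e-12). Against Actr3 KO, Dynll1 rose by 0.72 in dKO (SE 0.06, adjusted p 3.78e-10) and by 0.77 with ciliobrevin D (SE 0.06, adjusted p 1.55e-10). Chromosome 5 as a whole had a median of 0.39 in dKO against Actr3 KO, and with chromosome medians removed the dKO value of Dynll1 was 0.31, still called. Its paralog Dynll2 (81.3% coding identity) fell from 5662 ± 132 to 3907 ± 110 (log2 -0.54), had 4092 ± 177 in dKO (log2 0.07, adjusted p 0.245) and rose to 4685 ± 128 with ciliobrevin D (log2 0.26, or 0.07 and not called under quantile normalization).

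Dynlrb1, the roadblock light chain gene with reads here, had 2566, 2471 and 2573 in control and 1426, 1637 and 1513 in Actr3 KO. It had 2840, 2807 and 2756 in dKO and 1913, 2033 and 1797 with ciliobrevin D. The dKO libraries were all above control and the treated libraries lay between Actr3 KO and control, with no overlap among the 4 groups. The limma difference of dKO from control was small, at 0.14 (adjusted p 0.0343), and was not called in 7 of 24 alternatives. Among these were removal of chromosome medians (0.02), the replicate block (0.09) and leaving out any dKO replicate. Dynlrb1 (chromosome 2, 155236533 to 155250277) fell by 0.74 on the log2 scale in Actr3 KO against control (SE 0.06, adjusted p 3.71e-10). Against Actr3 KO it rose by 0.88 in dKO (SE 0.06, adjusted p 2.79e-11) and by 0.33 with ciliobrevin D (SE 0.06, adjusted p 4.13e-05). With length bins removed the values -0.74, 0.88 and 0.33 became -0.39, 0.55 and 0.31, all called, and the fall of treated cells against control (-0.41) became -0.08, not called.

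Of the 5 TCTEX1-family light chain genes, 4 fell in Actr3 KO, where 35.4% of all tested genes fell. None was called higher with ciliobrevin D (limma). There Dynlt1c fell and the other 4 had log2 fold changes of -0.12 to -0.05 against Actr3 KO. Dynlt1b had 621, 671 and 621 in control, 459, 423 and 383 in Actr3 KO, 550, 515 and 454 in dKO and 373, 364 and 423 with treatment. Dynlt1f had 677, 822 and 758, then 534, 523 and 454, then 649, 593 and 625, then 487, 478 and 436. For both genes the Actr3 KO and treated libraries lay below every control library and overlapped each other. Dynlt1b fell by 0.60 in Actr3 KO against control (SE 0.09, adjusted p 4.14e-06), and treated cells were lower than control by 0.72 for Dynlt1b and 0.68 for Dynlt1f (log2 -0.72 and -0.68). With length bins removed, Dynlt1b was -0.25 in Actr3 KO and -0.39 in treated cells against control, Dynlt1f was -0.35 in treated cells, and the rises in dKO against Actr3 KO (0.26 for Dynlt1b, 0.31 for Dynlt1f) became -0.07 and -0.02, not called. The rise of Dynlt1b in dKO was also not called without the Actr3 KO replicate 3 or the dKO replicate 1 (0.20 in both).

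Dynlt3, a TCTEX1-family gene on the X chromosome that is not part of the Dynlt1 cluster, had 1132, 1047 and 1094 in control and 762, 767 and 737 with ciliobrevin D. All treated libraries were below all control libraries. The gene fell by 0.48 in Actr3 KO (adjusted p 3.43e-06) and by 0.53 in treated cells against control (adjusted p 1.14e-06), and these became -0.23 and -0.28 with chromosome medians of level removed, both still called. The median fold changes of the X chromosome were smaller than these shifts, at -0.14 and -0.13. Dynlt1c, the lowest of the copies, had 152, 133 and 121 in Actr3 KO and 114, 77.8 and 106 with treatment, with no overlap. Its fall of 0.45 with ciliobrevin D (SE 0.15, adjusted p 0.0126) was not called with chromosome medians removed (-0.30, adjusted p 0.0832), without the Actr3 KO replicate 1 (-0.37, adjusted p 0.0686) or without the treated replicate 2 (-0.29, adjusted p 0.104).

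**Figure D3:**
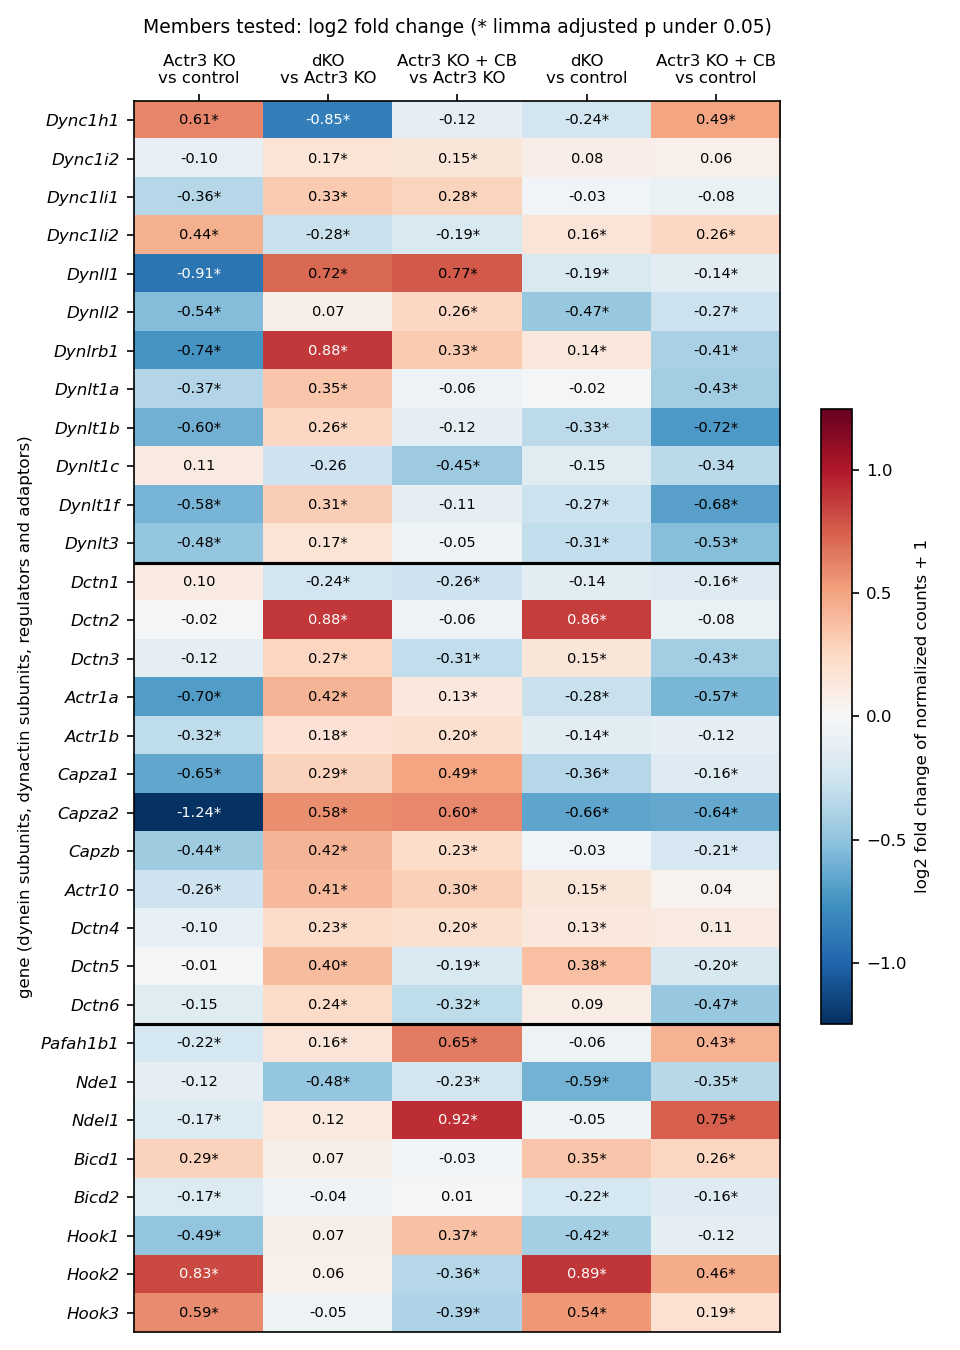
Log2 fold change of normalised count plus 1 for each of the 32 tested genes (rows, by role) in the 5 comparisons (columns), with the value printed in each cell and an asterisk where limma called it. Capza2 has the lowest value, -1.24 in Actr3 KO against control, and Ndel1 the highest in treated cells, 0.92 against Actr3 KO.

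In Actr3 KO, 6 of the 12 dynactin genes fell and 6 were not called, where 35.4% of all tested genes fell. The 6 that fell were both ARP1 filament genes, the 3 capping protein genes and Actr10. The calls of the other 6 turned on the processing. Dctn1 (0.10) was called higher with chromosome medians removed (0.56, adjusted p 3.93e-07), under quantile normalization (0.24) and without the control replicate 1 (0.18) or the Actr3 KO replicate 1 (0.16). Dctn2, Dctn3 and Dctn5 were called higher with length bins removed (0.11, 0.22 and 0.20). With chromosome medians removed, Dctn3, Dctn4 and Dctn6 were called lower (-0.14, -0.26 and -0.16). In dKO against Actr3 KO, 11 of the 12 rose, where 32.5% of all tested genes rose and 33.2% fell. Dctn1, the p150Glued subunit that binds microtubules, fell by 0.24 (-0.12 and not called with length bins removed). With ciliobrevin D against Actr3 KO, the filament, cap and 2 of 4 pointed-end genes rose, 7 in all, and 4 fell. Of all tested genes, 32.7% rose and 32.9% fell there. Under quantile normalization the treated value of Actr1a was -0.04 in place of 0.13, and without the Actr3 KO replicate 1 or 3 or the treated replicate 1 or 2 it was 0.09, 0.12, 0.13 and 0.11, not called.

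Actr1a encodes the main ARP1 subunit of the dynactin filament. Its normalised counts (chromosome 19, 46376813 to 46395741) were 6114, 6013 and 5666 in control, 3445, 3914 and 3617 in Actr3 KO, 4877, 5031 and 4767 in dKO and 4002, 4112 and 3899 with ciliobrevin D. All control libraries lay above all others, and the treated and untreated Actr3 KO libraries overlapped. Actr1a fell by 0.70 in Actr3 KO (SE 0.05, adjusted p 2.49e-10) and rose by 0.42 in dKO against Actr3 KO (SE 0.05, adjusted p 5.65e-07). Treated cells were lower than control, with a log2 fold change of -0.57 (SE 0.05, adjusted p 9.3e-09). The paralog Actr1b (78.6% coding identity) fell from 4444 ± 225 to 3558 ± 173 (log2 -0.32), and rose by 0.18 in dKO (0.38 with chromosome medians removed) and 0.20 with treatment against Actr3 KO. The treated value of Actr1b was 0.02 under quantile normalization and 0.12 with chromosome medians removed, neither called.

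Capping protein, a dimer of alpha and beta subunits, caps dynactin and also the barbed ends of ordinary actin filaments. Capza2 (chromosome 6, 17637010 to 17666972) had 2521, 2260 and 2745 in control, 1010, 1132 and 1044 in Actr3 KO, 1772, 1458 and 1539 in dKO and 1490, 1626 and 1718 with ciliobrevin D. Actr3 KO was the lowest group with no overlap, and the dKO and treated libraries overlapped each other below control. Capza2 fell by 1.24 on the log2 scale in Actr3 KO, 2.36-fold (SE 0.08, adjusted p 1.2e-11), the largest difference of the 32 genes in any comparison as fitted, though not with chromosome medians removed (-0.77, against 1.01 for Ndel1 with ciliobrevin D). It rose by 0.58 in dKO (SE 0.08, adjusted p 1.27e-06) and by 0.60 with ciliobrevin D (SE 0.08, adjusted p 8.1e-07), both against Actr3 KO. Chromosome 6 as a whole had a median of -0.42 in Actr3 KO, -0.39 in dKO and -0.41 in treated cells, each against control. The removal of chromosome medians works on levels, so its shift differs from these values. With chromosome medians removed Capza2 was -0.77 in Actr3 KO, -0.31 in dKO against control (-0.66 otherwise) and -0.12 in treated cells against control (-0.64 otherwise), the last not called (adjusted p 0.192).

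Capza1, the second alpha subunit gene (77.1% coding identity), had 1999, 1808 and 1872 in control, 1146, 1252 and 1222 in Actr3 KO and 1656, 1785 and 1644 with ciliobrevin D. It was lowest in Actr3 KO, with no overlap, and fell there by 0.65 (SE 0.06, adjusted p 2.33e-09). Capza1 rose by 0.49 with treatment (SE 0.06, adjusted p 1.93e-07) and by 0.29 in dKO against Actr3 KO, the latter 0.69 with chromosome medians removed. Capzb, the beta subunit gene, had 3712, 4115 and 3736 in Actr3 KO and 4922, 5425 and 5096 in dKO, with no overlap. Its rise of 0.42 in dKO (SE 0.06, adjusted p 4.68e-06) followed a fall of 0.44 in Actr3 KO from 5246 ± 376 in control.

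Dctn2 encodes dynamitin, the shoulder subunit whose excess is known to split dynactin. Its normalised counts (chromosome 10, 127266262 to 127281959) were 4171, 4404 and 4072 in control, 4264, 4322 and 3881 in Actr3 KO, 7403, 8054 and 7538 in dKO and 4137, 3968 and 3879 with ciliobrevin D. Every dKO library stood above every other library, and the other 3 groups overlapped. Dctn2 rose by 0.88 in dKO against Actr3 KO (SE 0.05, adjusted p 1.02e-11) and by 0.86 against control (SE 0.05, adjusted p 1.25e-11). The median over all tested genes of chromosome 10 was 0.40 in both comparisons, and with chromosome medians removed the Dctn2 values were 0.43 and 0.53, both called.

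The other shoulder and pointed-end genes had smaller values. Dctn5, a pointed-end subunit, had 875, 857 and 784 in control and 1114, 1091 and 1074 in dKO, with no overlap, and rose by 0.38 (SE 0.07, adjusted p 5.01e-05). Dctn6, its partner in the pointed-end complex, had 960, 985 and 970 in control and 709, 736 and 663 with ciliobrevin D, with no overlap, and was lower by a log2 fold change of -0.47 (SE 0.07, adjusted p 3.9e-06), or -0.31 with length bins removed. Against Actr3 KO, Dctn3, Dctn5 and Dctn6 all fell with ciliobrevin D (log2 -0.31, -0.19 and -0.32) and rose in dKO (0.27, 0.40 and 0.24). With length bins removed the dKO values were -0.06 for Dctn3, 0.12 for Dctn5 and 0.04 for Dctn6, none called, and the treated values were -0.33, -0.21 and -0.29. The treated fall of Dctn5 was not called without the Actr3 KO replicate 1 or 2 or the treated replicate 1 (-0.16, -0.18 and -0.13). Actr10, the ARP11 pointed-end subunit, and Dctn4, p62, rose in both, by 0.41 and 0.23 in dKO and by 0.30 and 0.20 with treatment, where under quantile normalization Actr10 was 0.19 and Dctn4 0.04, the second not called. The dKO value of Dctn4 was 0.35 with length bins removed.

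**Figure D4:**
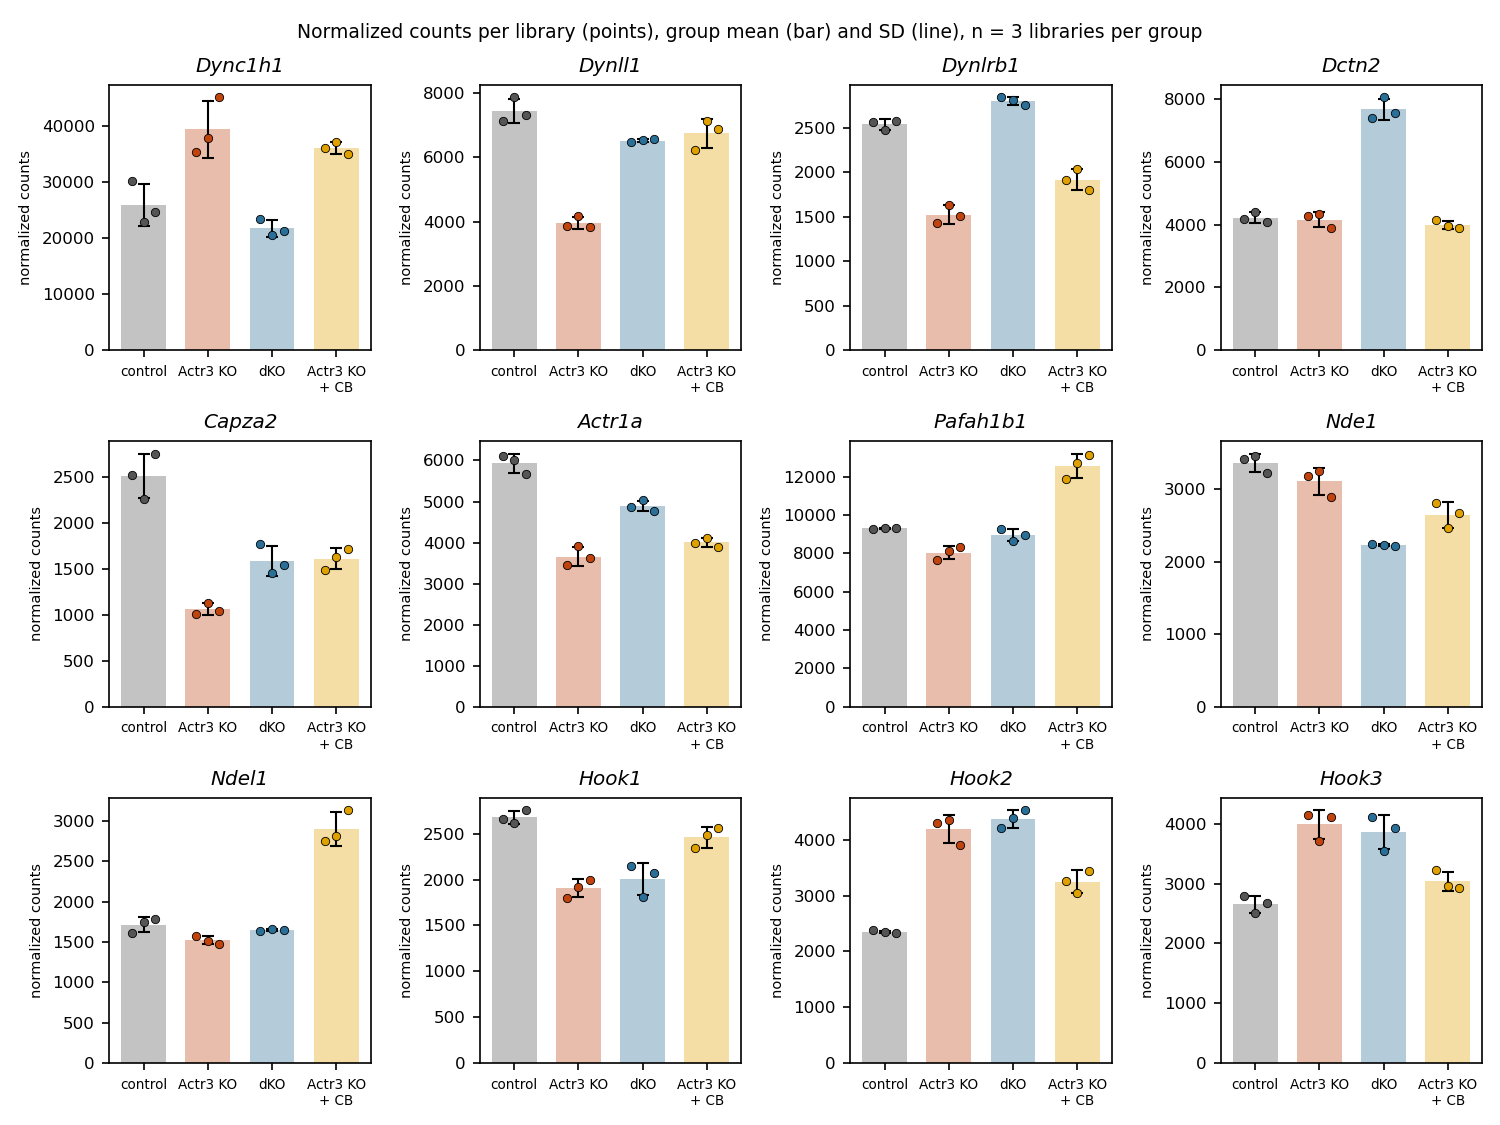
Normalised counts of 12 genes in each library (points), with group mean (bar) and SD (line), 3 libraries per group. Dctn2 is high in dKO only, Ndel1 and Pafah1b1 are high in the ciliobrevin D libraries, and Dynll1 and Capza2 are lowest in Actr3 KO.

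Ndel1 and Pafah1b1 gave 2 of the 3 largest rises of the 32 genes with ciliobrevin D. Ndel1 encodes a scaffold that brings LIS1 to dynein. Normalised counts of Ndel1 (chromosome 11, 68821434 to 68853146) were 1614, 1746 and 1788 in control, 1581, 1519 and 1473 in Actr3 KO, 1641, 1657 and 1654 in dKO and 2747, 2815 and 3132 with ciliobrevin D. The treated libraries all stood above every other library. Ndel1 rose by 0.92 on the log2 scale against Actr3 KO, 1.90-fold (SE 0.06, adjusted p 1.46e-11), and by 0.75 against control (SE 0.06, adjusted p 4.37e-10). In dKO against Actr3 KO it had 0.12 (adjusted p 0.0869), called with TMM factors (0.14) and in the fit of these 2 groups (0.12).

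Pafah1b1 encodes LIS1, the dynein regulator mutated in lissencephaly. Its counts (chromosome 11, 74673949 to 74724384) were 9284, 9303 and 9338 in control, 7651, 8106 and 8316 in Actr3 KO, 9284, 8632 and 8961 in dKO and 11882, 12695 and 13129 with ciliobrevin D. The treated libraries were again the highest with no overlap, and those of Actr3 KO the lowest. Pafah1b1 rose by 0.65 with treatment against Actr3 KO (SE 0.05, adjusted p 9.58e-10), after a fall of 0.22 in Actr3 KO against control (adjusted p 0.00117) that was -0.05 and not called under quantile normalization.

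Nde1, the paralog of Ndel1, fell in dKO and with ciliobrevin D. It had 3410, 3454 and 3216 in control, 3175, 3247 and 2889 in Actr3 KO, 2242, 2231 and 2215 in dKO and 2807, 2458 and 2668 with ciliobrevin D. The dKO libraries were the lowest with no overlap, and the treated libraries lay between them and Actr3 KO. Nde1 (chromosome 16, 14163275 to 14192928) fell by 0.48 in dKO against Actr3 KO (SE 0.06, adjusted p 2.67e-07), by 0.59 against control (SE 0.06, adjusted p 1.05e-08) and by 0.23 with ciliobrevin D (-0.36 under quantile normalization). Chromosome 16 had a median of -0.41 in dKO against Actr3 KO, and with chromosome medians removed Nde1 was -0.03 (adjusted p 0.608) and, against control, -0.15.

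Among the adaptors, Hook2, Hook3 and Bicd1 rose in Actr3 KO and Hook1 and Bicd2 fell. In dKO against Actr3 KO their values ran from -0.05 to 0.07, and limma called 0 of 5, as did edgeR and DESeq2, with 0 at an unadjusted p under 0.05. After removal of length bins, 4 were called higher, Bicd1 (0.42, adjusted p 0.000476), Hook3 (0.31, adjusted p 1.64e-05), Hook1 (0.28, adjusted p 0.000119) and Bicd2 (0.17, adjusted p 0.0027). Bicd2 was called lower with chromosome medians of level removed (-0.19 in place of -0.04), a larger shift than the median fold change of chromosome 13 (0.07). Hook1 was also called higher without the dKO replicate 2 (0.14). With ciliobrevin D, the 3 Hook genes moved back toward control, Hook1 rising and Hook2 and Hook3 falling. Per kilobase, control levels were 592 for Hook2, 427 for Hook1 and 207 for Hook3, and in Actr3 KO 1052, 304 and 311.

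Hook2, an adaptor linked to the centrosome and cilium formation, had 2375, 2352 and 2337 in control, 4300, 4351 and 3895 in Actr3 KO, 4201, 4377 and 4520 in dKO and 3258, 3042 and 3444 with ciliobrevin D. The Actr3 KO and dKO libraries overlapped above all others, and treated libraries lay between them and control. It rose by 0.83 in Actr3 KO (SE 0.06, adjusted p 3.63e-11) and by 0.89 in dKO against control (SE 0.06, adjusted p 1.11e-11). With treatment Hook2 fell by 0.36 against Actr3 KO (adjusted p 7.5e-06).

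Hook3, an adaptor linked to the Golgi and centrosomal satellites, had 2787, 2506 and 2674 in control, 4136, 3712 and 4111 in Actr3 KO, 4102, 3544 and 3933 in dKO and 3220, 2958 and 2930 with ciliobrevin D. Its libraries fell in the same order of groups as those of Hook2. Hook3 rose by 0.59 in Actr3 KO (adjusted p 4.1e-08) and by 0.54 in dKO against control (SE 0.06, adjusted p 1.61e-07), and fell by 0.39 with treatment against Actr3 KO (SE 0.06, adjusted p 1.25e-05).

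Hook1, an adaptor of endosome transport, had 2662, 2618 and 2755 in control, 1804, 1924 and 1993 in Actr3 KO, 2142, 1810 and 2068 in dKO and 2339, 2484 and 2564 with ciliobrevin D. The dKO and Actr3 KO libraries overlapped below the rest, and treated libraries were close below control. Hook1 fell by 0.49 in Actr3 KO and by 0.42 in dKO against control (SE 0.06, adjusted p 4.35e-06), the second being -0.27 with length bins removed. It rose by 0.37 with treatment against Actr3 KO (SE 0.06, adjusted p 2.36e-05). Bicd2, an adaptor of Golgi and nuclear envelope cargo, fell by 0.17 in Actr3 KO and its less abundant paralog Bicd1 rose by 0.29 (275 ± 10.9 to 337 ± 32.0). Bicd2 was not called under quantile normalization (-0.09) or with chromosome medians removed (-0.10). Bicd1 was not called under quantile normalization (0.17), with length bins removed (0.12), or without the unnumbered control library (0.26) or the Actr3 KO replicate 2 (0.27) or 3 (0.23). With chromosome medians removed Bicd1 was 0.75 (adjusted p 2.13e-06).

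Other genes of the pathway were listed by their known function. All 12 Rab GTPases that mark dynein cargo fell in Actr3 KO, where 35.4% of all tested genes fell. Their median on the log2 scale was -0.45 against 0.00. Against Actr3 KO, 11 were higher in dKO and 8 with ciliobrevin D, where 32.5% and 32.7% of all tested genes were. With quantile scaling or chromosome or length medians removed, 11 or 12 fell in Actr3 KO, and the median ran from -0.47 to -0.36. Rab7, the late endosome GTPase, had 4368 ± 190 in control and 2290 ± 104 in Actr3 KO (log2 -0.93), then 3651 ± 107 in dKO and 3601 ± 62.1 with ciliobrevin D. Rab11a, of recycling endosomes, fell by 0.80 and rose by 0.78 in dKO and 0.28 with treatment. Of 18 transport kinesin genes tested, whose motors move toward plus ends, 10 rose and 2 fell in Actr3 KO, where 34.4% and 35.4% of all tested genes did. They were 7 and 3 with length bins removed, and 7 and 2 with chromosome medians removed. Kif13b rose from 2776 ± 352 to 4627 ± 248 (log2 0.74) and was 2773 ± 237 with ciliobrevin D, while Kif5b, conventional kinesin, fell from 10632 ± 510 to 7884 ± 199 and rose to 12540 ± 547.

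Further dynein adaptors and regulators numbered 19 tested, of which 7 rose and 6 fell in Actr3 KO, 3 and 8 in dKO, and 9 and 5 with ciliobrevin D against Actr3 KO. The Actr3 KO counts are near the 34.4% and 35.4% of all tested genes, and under quantile normalization they were 11 and 4. The shares of all tested genes were 32.5% and 33.2% in dKO against Actr3 KO and 32.7% and 32.9% with ciliobrevin D. With ciliobrevin D, Spag9, the JIP4 adaptor, rose from 5939 ± 293 to 18564 ± 2862 (log2 1.63, adjusted p 1.83e-13) and Bicdl1, a BICD-related adaptor, from 535 ± 53.3 to 1420 ± 117 (log2 1.41, adjusted p 8.57e-12). Nudc, a LIS1 pathway chaperone, fell from 5129 ± 144 to 3063 ± 67.7 in Actr3 KO (log2 -0.74). Of 11 plus-end genes, 3 rose and 4 fell in Actr3 KO, 5 and 3 in dKO, and 6 and 1 with ciliobrevin D against Actr3 KO, or 3 and 2 in the last with quantile scaling or chromosome medians removed. The same shares of all tested genes apply to the plus-end genes, and their Actr3 KO counts are near them. Mapre1, which encodes EB1 and recruits p150Glued to growing ends, fell by 0.53 in Actr3 KO and rose by 0.34 in dKO and 0.72 with ciliobrevin D, while its paralog Mapre2 rose by 0.53 in Actr3 KO. Of 5 dynein-2 genes, 3 rose in Actr3 KO and 2 were not called, where 34.4% of all tested genes rose. With chromosome medians removed 1 of the dynein-2 genes rose, and with length bins removed 5 did. In dKO against Actr3 KO, 2 rose and 3 fell, where 32.5% and 33.2% of all tested genes did. The dynein-2 median of -0.29 there was 0.14 with chromosome medians removed. Dync2h1, the ciliary heavy chain, went from 908 ± 117 to 1351 ± 99.2 (log2 0.58) and to 867 ± 141 in dKO (log2 -0.65).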

How the data were processed

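The submitters' processing notes name DESeq2 2.11.40.7, featureCounts 2.0.1, HISAT2 2.2.1 and fastp 0.23.2, with builds mm10 and GRCm38 but no options. The deposited table holds a signal per gene and library, in effect the authors' read count divided by a size factor of that library: values were whole multiples of 1 step (100% within 0.01 reads), and multiplying out gave whole reads. There is no correction for gene length, and the strand setting of the counting was not given. Coordinates are from RefSeq GRCm38.p6.

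Titles set the groups. The numbers of 1 control column match no title. It is listed second of the control values, without a replicate number. Chi-square tests between replicates gave 4.33 to 16.4 per degree of freedom, more than counting alone, so none was merged. Same-numbered libraries did not deviate together (correlations -0.04 to 0.07 over 15 pairs).

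A gene was tested (13939 in all) if 3 or more libraries had a value of 10 or more. All 12 libraries entered 1 limma 3.58.1 fit of log2(value + 1) in R 4.3.3 (trend, two-sided, Benjamini-Hochberg over all tested genes, called under 0.05), with 5 comparisons. Fold changes are on that scale. Library values are printed for the 8 called genes with the largest fold change in each comparison. The genes, lists and rules were chosen with earlier results of these data known. Merged exon lengths (GENCODE) were known for 90.7% of tested genes. Alternatives were pseudocounts, filters, quantile and TMM scaling, removal of chromosome or length medians, DESeq2 1.42.0 and edgeR 4.0.16 with whole reads, fits of 2 groups, a replicate block, a 1.5-fold threshold and leaving out each library. Chromosome medians were medians of log2 level per library. Length medians were medians of each gene's deviation from its own mean. On simulated data for Actr3 KO against control (13939 genes), a small part of the genes was altered, none of them with a low mean. Of these, limma recovered 62% of 1.25-fold and 96% of 1.5-fold changes. Most tested genes were called in the real comparison, so these rates may not hold for it or for genes with few reads.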

Additional observations from a re-analysis of the deposited data

How the results depend on the processing

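Of the member values under alternatives, 3605 kept their direction and their side of the threshold, 121 lost the call, 51 gained it and 63 changed sign. The alternative that removes length bins was chosen after seeing the data. Dynlt1c had the fewest reads of the 32 genes, and reads of the Dynlt1 copies may be split among them. The stricter threshold of at least 1.5-fold left 3 higher and 6 lower in Actr3 KO against control, 3 and 1 in dKO against Actr3 KO, 4 and 0 with ciliobrevin D against Actr3 KO, 2 and 2 in dKO against control, and 1 and 3 with ciliobrevin D against control. Over all tested genes the shares were, in order, 15.1% and 15.3%, 10.6% and 14.9%, 13.1% and 11.3%, 11.7% and 15.4%, and 13.3% and 11.1%. Quantile normalization left 9 higher with ciliobrevin D against Actr3 KO (15 otherwise), and 12 higher and 9 lower in dKO against control (10 and 13 otherwise). Among all called genes, the higher share was then 45.6% (49.9% otherwise) and 54.9% (47.7% otherwise). Removing chromosome medians left 6 higher in dKO against control, where 43.9% of all called genes were higher. Causes were not tested.

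The replicate number as a block, without the unnumbered control library, gave 4 higher and 17 lower in Actr3 KO against control, 20 and 4 in dKO against Actr3 KO, 15 and 9 with ciliobrevin D against Actr3 KO, 8 and 12 in dKO against control and 6 and 16 with ciliobrevin D against control. Of all genes called under the block, 48.8%, 49.5%, 50.1%, 47.3% and 50.8% were higher in that order. The labels do not pair the libraries, and 2 of 6 libraries (dKO with Actr3 KO) and 3 of 6 (ciliobrevin D with Actr3 KO) correlated best with their own number. Under the block Dynlt1a changed sign in dKO against control, to 0.03. Leaving out each library gave 4 to 6 higher and 17 to 20 lower in Actr3 KO against control, 17 to 21 and 4 in dKO against Actr3 KO, 13 to 15 and 7 to 9 with ciliobrevin D against Actr3 KO, 7 to 10 and 11 to 14 in dKO against control, and 6 to 7 and 14 to 18 with ciliobrevin D against control. Values that changed sign in such fits ranged over Dctn2 -0.05 to 0.03 and Dctn5 -0.06 to 0.02 in Actr3 KO against control, Bicd1 -0.01 to 0.17, Bicd2 -0.07 to 0.00 and Hook3 -0.10 to 0.01 in dKO against Actr3 KO, Bicd1 -0.11 to 0.03, Bicd2 -0.02 to 0.06 and Dynlt3 -0.11 to 0.02 in ciliobrevin D against Actr3 KO, and Capzb -0.07 to 0.03, Dync1li1 -0.06 to 0.01 and Dynlt1a -0.07 to 0.06 in dKO against control.

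Under quantile normalization the log2 fold changes that changed sign were Dctn2 0.08, Dctn4 0.00, Dctn5 0.02, Dync1i2 0.04 and Dynlt1c -0.03 in Actr3 KO against control, Actr1a -0.04, Bicd1 0.09, Bicd2 -0.10, Dync1i2 -0.05 and Dynlt1a 0.10 in ciliobrevin D against Actr3 KO. Further such values were Capzb 0.13, Dctn1 0.04, Dync1li1 0.00 and Pafah1b1 0.15 in dKO against control, Actr10 -0.00 and Dync1i2 -0.02 in ciliobrevin D against control. With chromosome medians removed they were Dctn2 0.10 and Dynlt1c -0.02 in Actr3 KO against control, Bicd1 -0.05 in dKO against Actr3 KO, Bicd1 0.02, Bicd2 -0.16, Dynlt1a 0.10, Dynlt1b 0.03 and Dynlt1f 0.04 in ciliobrevin D against Actr3 KO. Further such values were Actr1b 0.07, Capza1 0.09, Dctn1 0.21 and Dync1i2 -0.05 in dKO against control, Actr10 -0.05, Dctn1 0.35 and Dctn4 -0.10 in ciliobrevin D against control. With length bins removed they were Dctn2 0.11, Dctn3 0.22 and Dctn5 0.20 in Actr3 KO against control, Bicd2 0.17, Dctn3 -0.06, Dynlt1b -0.07, Dynlt1f -0.02 and Hook3 0.31 in dKO against Actr3 KO, Bicd2 -0.05 in ciliobrevin D against Actr3 KO. Further such values were Pafah1b1 0.09 in dKO against control, Dctn2 0.08 and Hook3 -0.04 in ciliobrevin D against control.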
